A study of Mustela putorius furo with 8 samples.

Results

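CF cluster 19 is a group of cells that the authors' clustering separated within the CFTR knockout (CF) libraries of cultured ferret pancreatic ductal epithelium (PDE), and its members were taken by that deposited cluster number alone. It held 331 of the 11345 retained CF cells and of the 32945 retained cells of both genotypes. Single-cell RNA libraries had been made by the 10x Genomics droplet method while the cells polarized at an air-liquid interface, 1 for each of 2 genotypes at day 2, 5, 7 and 9. The comparison set here was the other CF cells of the same library, 1519 at day 7 and 2256 at day 9. All cultures came from newborn ferrets, WT or homozygous for the CFTR knockout, and had been expanded for 10 passages and then seeded on permeable inserts in PneumaCult media, with no drug treatment named in the labels. The culture protocol in the labels gives a longer time at the interface than the days of the libraries, and the days are used here. Cells of 3 donors had been pooled for each genotype, and per the study the donors of the genotypes differed in PDX1. With 1 library for each genotype and day, no value has a replicate error and no test was run. Each interval below is a 95% interval of counting error. Intervals of CPM and of their ratios leave out the variation of a gene between cells.

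Pancreatic ducts carry bicarbonate-rich fluid out of the gland through CFTR, the chloride and bicarbonate channel lost in cystic fibrosis. Trefoil factors such as TFF3 are small secreted peptides that mucous epithelia release together with mucins, and they take part in repair of the surface. SPINK1 encodes a trypsin inhibitor secreted by the pancreas, and its inherited variants are a known risk factor for pancreatitis.

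The retained cells of cluster 19 summed to 3406207 UMIs (unique molecular identifiers, counted transcripts) at day 7 and 5144258 at day 9, against 31329745 and 44865454 for the other CF cells. Median depth per cell was 40364 UMIs at day 7 and 22830 at day 9, against 22988 and 19739 in the other CF cells. Cells of the cluster also had a higher share of mitochondrial UMIs, with a median of 14.7% at day 7 and 12.8% at day 9, against 5.54% and 5.29%. Those shares lay within the limit of 20% that the authors had set for retained cells, and the highest cell reached 20.0%. CFTR, the targeted gene, was read at 2.50, 8.69, 11.1 and 11.4 CPM (counts-per-million, a gene's UMIs scaled to the same total in every set) in the CF libraries of day 2, 5, 7 and 9, and at 6.57, 16.9, 15.9 and 29.5 CPM in the WT libraries. UMIs are counted from the 3′ end of transcripts, so they do not check the disrupted part of the gene or the genotype. The CF libraries of day 7 and day 9 shared 1 cell barcode, and no barcode of cluster 19 occurred in both. The authors had removed doublets with DoubletFinder before deposit.

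Cluster 19 was a cluster of the late libraries. No cell of the 4499 at CF day 2 belonged to it, with an exact upper limit of 0.082% by the same method as the intervals that follow. At day 5 it held 10 of 2750 cells (0.364%, exact Clopper-Pearson interval 0.175 to 0.668), at day 7 88 of 1607 (5.48%, 4.41 to 6.70) and at day 9 233 of 2489 (9.36%, 8.25 to 10.6). With 1 library a day, these intervals cover the counting of cells only, and the spread between cultures at a day is unknown. At day 7 the other CF cells held 411 cells under 3000 UMIs and cluster 19 held none, and among cells of at least 3000 UMIs its share was 7.36% at day 7 and 10.3% at day 9. Of all CF cells that the deposited table called ductal, cluster 19 made up 88 of 176 at day 7 (50%, 42.4 to 57.6) and 233 of 284 at day 9 (82.0%, 77.1 to 86.3).

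**Figure D1:**
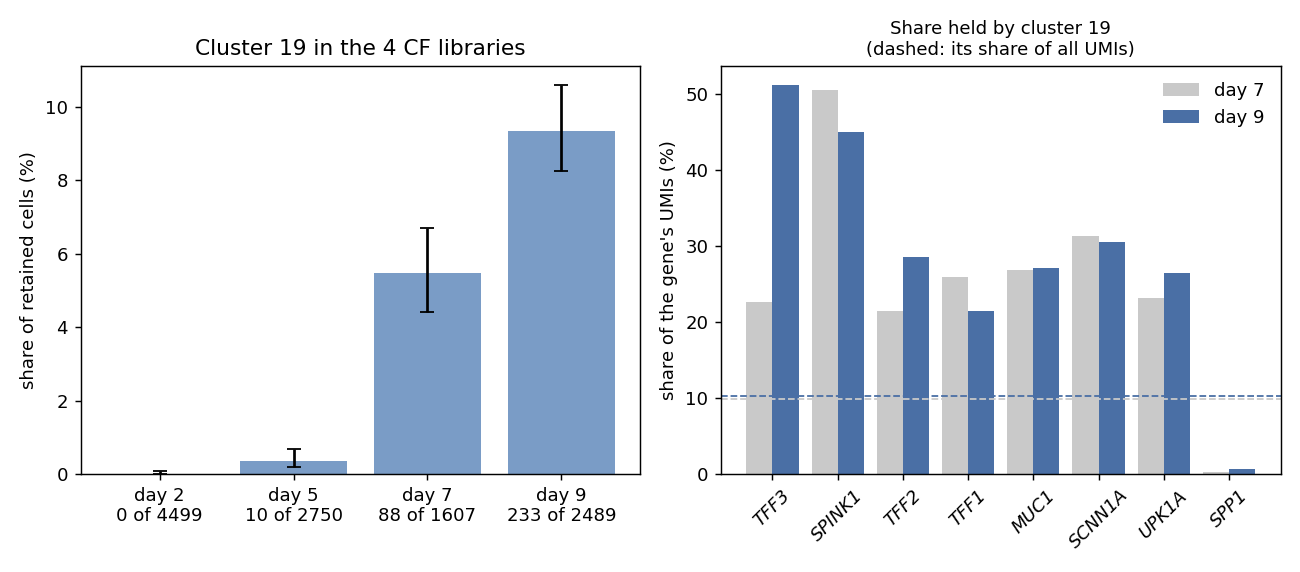
Left, share of retained cells in cluster 19 (%) in each CF library, with exact 95% Clopper-Pearson intervals as error bars and cell numbers under each bar. Right, share of a gene's UMIs in the CF library (%) that cluster 19 held at day 7 and day 9, with dashed lines at its share of all UMIs (9.81% and 10.3%). At day 9 the cluster held 51.2% of the library's TFF3 UMIs and 45% of its SPINK1 UMIs, and 0.595% of its SPP1 UMIs.

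Cluster 19 differed from the rest of its library mainly by genes that were low in it. Among 8009 genes of at least 10 CPM in either set at day 9, 232 (2.90%) were at least 2-fold higher in cluster 19 and 1259 (15.7%) at least 2-fold lower, on the scale of log2(CPM + 1). At day 7, 350 (4.26%) and 1297 (15.8%) of 8215 genes were so. The genes called at day 9 overlapped with those of day 7, with 173 higher genes called at both days (49.4% of the day 7 list and 74.6% of the day 9 list) and 983 lower genes (75.8% and 78.1%). The cluster had been made from these genes and from both libraries, so these counts describe it and test nothing. The median gene stood at -0.26 log2 at day 9 and at -0.23 at day 7. S100A6 and mitochondrial genes took 7.06% and 12.8% of the cluster's UMIs at day 9, against 4.06% and 6.66% in the other cells. With mitochondrial genes left out of the CPM, 316 genes were at least 2-fold higher at day 9 and 1116 lower. The median gene then stood at -0.16 log2. The part of these shares in the counts was not tested. Centred on the median gene, 475 genes were at least 2-fold higher and 831 lower at day 9, and 622 and 870 at day 7, so higher genes made up 36.4% and 41.7% of the calls in place of 15.6% and 21.3%.

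The mitochondrial share of the cells moved with these counts. When both sets were limited to cells of 8 to 16% mitochondrial UMIs, 158 cells of cluster 19 and 484 other cells remained at day 9, and of 7539 genes 24 (0.318%) were at least 2-fold higher and 196 (2.60%) lower. At day 7, 53 and 263 cells remained, with 40 (0.510%) and 362 (4.62%) of 7843 genes. This limit also changed which clusters were compared. At day 9 the 484 cells held 227 of CF cluster 7, 79 of CF cluster 23 and 78 of CF cluster 18, and 66.3% of them came from the 5 CF clusters most like cluster 19. The part of the mitochondrial share in the differences was not tested. Values within this limit are given below as mitochondria-matched values. A gene that reached 10 CPM only in the set where it was higher was counted because of that level, so counts over gene lists below describe the members measured and support no statement on a whole list.

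**Figure D2:**
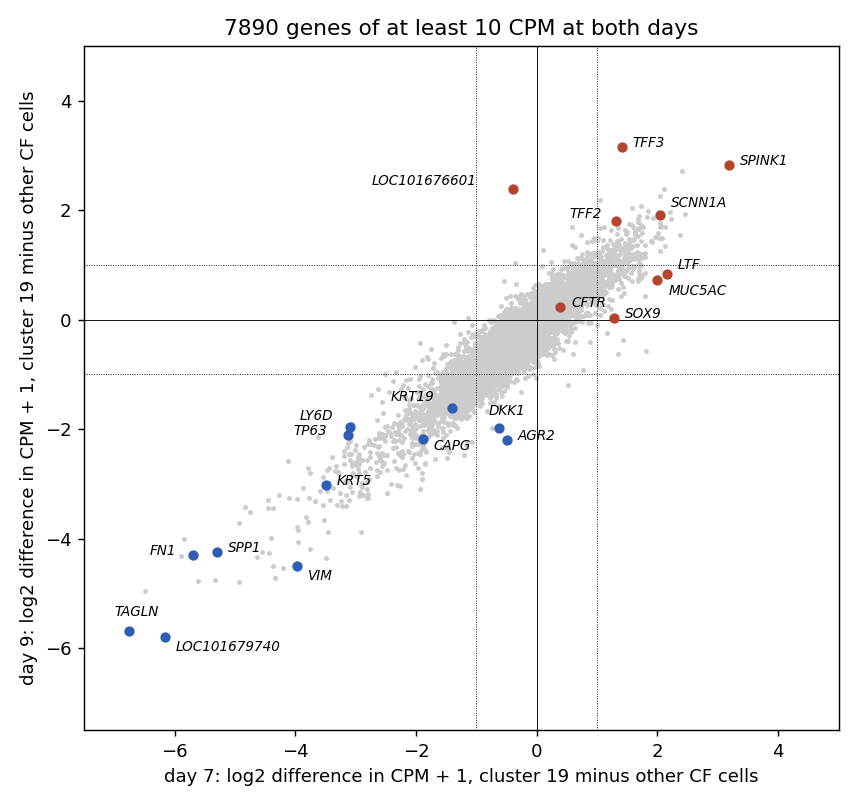
Log2 difference in CPM + 1, cluster 19 minus other CF cells, at day 7 (x axis) and day 9 (y axis) for 7890 genes of at least 10 CPM in either set at both days, with named genes in red (higher at day 9) and blue (lower) and dotted lines at 2-fold. TAGLN and SPP1 lie far to the lower left at both days, SPINK1 far to the upper right, and TFF3 is higher at day 9 (3.16) than at day 7 (1.41).

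The deposited name of the cluster is ductal, and none of the study's ductal markers was at least 2-fold higher in it than in the other CF cells. The numbers of genes past 2-fold over all genes, given above, are 2.90% higher and 15.7% lower. Of the 6 markers that the study used for ductal cells, 5 reached 10 CPM in cluster 19 or in the other CF cells at day 9, none was at least 2-fold higher in the cluster and 3 were at least 2-fold lower. KRT19, a keratin of duct epithelium, stood at 1397 CPM in the cluster and 4310 CPM in the other cells at day 9, 3.09-fold lower (3.01 to 3.16). CAPG, an actin-capping protein, was 4.56-fold lower (4.15 to 5.03). KRT5, a keratin of basal cells that the study lists as ductal, was 8.25-fold lower (7.28 to 9.37). All 3 were lower at day 7 too, by 2.64-fold, 3.73-fold and 11.5-fold. Among mitochondria-matched cells only KRT19 of the 5 ductal markers stayed at least 2-fold lower at day 9 (0.468-fold, 0.454 to 0.481), with CAPG at 0.535-fold and KRT5 at 0.551-fold, and 3 of 5 did at day 7. KRT7, KRT19 and KRT18 were lower in cluster 19 than in any of the 10 other CF clusters with at least 50 cells at day 9, at 1585, 1397 and 117 CPM. CF cluster 15, a cluster of day 5, had like levels of these keratins at its own day, at 1290, 1624 and 98.5 CPM. The markers that the study used for centroacinar progenitors went the opposite way, and 7 of the 11 found in the matrices were at least 2-fold higher at day 9 and 8 at day 7, with none lower. Of the 9 that reached 10 CPM in both sets at day 9, 5 were. Matched cells left 2 of the 11 past 2-fold at day 9 and none at day 7. That list was chosen by the study on these libraries and holds TFF3, so it is not independent evidence of a cell type. The group is called cluster 19 below.

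TFF3 had the largest positive difference among genes of at least 20 CPM in either set at day 9. It stood at 392 CPM in cluster 19 (375 to 410) and 42.9 CPM in the other CF cells, 9.13-fold higher (8.58 to 9.73). At day 7 it stood at 153 CPM and 56.8 CPM, 2.69-fold higher (2.44 to 2.97). In the mitochondria-matched cells TFF3 was 5.48-fold higher (5.03 to 5.98) at day 9, but at day 7 it stood at 142 CPM against 149 CPM (0.953-fold, 0.838 to 1.08). The 2 CF clusters with the lowest TFF3 at day 9, clusters 11 and 3, read 2.15 and 2.90 CPM. CF cluster 13, with a median of 951 UMIs per cell, read 33.6 CPM. The level that free RNA reaches in this library was not measured. After each cell was thinned to 3000 UMIs, TFF3 was seen in 97 of 233 cells of cluster 19 at day 9 (41.6%, 35.2 to 48.2), in 4.82% of the other cells (3.93 to 5.85) and in 1.35% of the cells of cluster 3 (0.543 to 2.75). Median depths of these 3 sets were 22830, 19739 and 18486 UMIs, and without thinning the shares were 75.5%, 14.5% and 5.18%.

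The other trefoil genes were also higher. TFF2, a peptide of gastric mucous neck cells, stood at 565 CPM against 162 CPM at day 9 (3.50-fold, 3.35 to 3.65) and 285 CPM against 113 CPM at day 7 (2.51-fold, 2.34 to 2.70). TFF1, a peptide of gastric pit cells, stood at 228 CPM against 96.5 CPM at day 9 (2.37-fold, 2.22 to 2.53) and 138 CPM against 43.0 CPM at day 7 (3.21-fold, 2.89 to 3.57). All 3 of 3 trefoil genes passed 2-fold at both days, beside 2.90% of all genes at day 9 and 4.26% at day 7. These values are of the contrast that made the cluster and test nothing. High TFF2 and TFF1 were not particular to cluster 19. At day 9 TFF2 read 472 CPM in cluster 18 and 381 CPM in cluster 7, and TFF1 203 and 250 CPM. Cluster 21, with a median of 957 UMIs per cell, read 571 CPM of TFF2 and 274 CPM of TFF1. TFF2 in the mitochondria-matched cells was 2.52-fold higher (2.37 to 2.67) at day 9, yet lower at day 7, at 166 CPM against 339 CPM (0.490-fold, 0.437 to 0.546). TFF1 was there 2.00-fold higher at day 9 (1.83 to 2.19) and 1.19-fold at day 7 (1.02 to 1.38). So none of the 3 trefoil genes was 2-fold higher among matched cells at day 7. TFF1, TFF2 and TFF3 lie close together in the reference table for the assembly ASM1176430v1.1, at 3327302 to 3333118, 3344687 to 3347349 and 3361502 to 3364451. That table names no chromosome for them.

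SPINK1 had the next largest positive difference at day 9. It stood at 1143 CPM in cluster 19 (1114 to 1172) and 160 CPM in the other CF cells, 7.12-fold higher (6.88 to 7.37). Among the other CF clusters it was high in cluster 18 (1089 CPM), lower in cluster 7 (135 CPM) and cluster 21 (68.6 CPM), and lowest in cluster 14 (1.72 CPM). SPINK1 in the mitochondria-matched cells was 3.73-fold higher (3.56 to 3.90) at day 9 and 12.7-fold (11.2 to 14.5) at day 7. Its value at day 7, 301 CPM against 32.0 CPM, rested mostly on a single cell, which held 677 of the 1025 SPINK1 UMIs of the cluster and was one of the mitochondria-matched cells. Without that cell the cluster read 103 CPM, 3.22-fold above the other cells (2.85 to 3.64), and the matched cells were 4.16-fold higher (3.55 to 4.88) in place of 12.7-fold. After thinning, SPINK1 was seen in 96 of 233 cells of cluster 19 at day 9 (41.2%, 34.8 to 47.8), in 3.69% of the other cells (2.91 to 4.60) and in 1.15% of cluster 3 (0.425 to 2.49). Unthinned shares were 60.9%, 12.5% and 5.37%.

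Several membrane mucins, the large glycoproteins that coat the apical surface, were higher in cluster 19. Of 7 genes of this list in the matrices, 4 reached 10 CPM, and 3 of these were at least 2-fold higher at day 9 and 4 at day 7, beside 2.90% and 4.26% of all genes. At day 9 MUC4 reached that limit in cluster 19 alone. MUC1 stood at 1087 CPM against 335 CPM at day 9 (3.25-fold, 3.15 to 3.35) and 1380 CPM against 407 CPM at day 7. MUC4 stood at 29.4 CPM against 7.56 CPM at day 9 and 45.2 CPM against 13.4 CPM at day 7. Of the gel-forming mucins, 2 were measured at both days. MUC5AC, the mucin of gastric and airway goblet cells, was 4.09-fold higher at day 7 (147 CPM against 36.1 CPM) and 1.66-fold higher at day 9 (71.5 CPM against 43.0 CPM). MUC5B was 3.10-fold higher at day 9, at 18.9 CPM, and 0.808-fold (0.573 to 1.12) in the mitochondria-matched cells. SPDEF, the factor that drives goblet cell maturation, stood under 10 CPM in both sets. AGR2, a folding enzyme for mucins, was lower, at 36.5 CPM against 171 CPM at day 9, and cluster 7 read 370 CPM. Matched AGR2 was 0.15-fold (0.125 to 0.18) at day 9 and 1.03-fold (0.849 to 1.25) at day 7. Of 7 measured genes of goblet maturation and glycosylation, 2 were at least 2-fold higher at each day. AGR2 was the only lower one at day 9, and none was at day 7, beside 15.7% and 15.8% of all genes. In matched cells none of 7 was higher at either day. Within the mitochondria-matched cells no membrane or gel-forming mucin was at least 2-fold higher at day 9, with MUC1 at 1.55-fold and MUC4 at 1.72-fold. MUC5AC was then lower in the cluster at day 9, at 65.6 CPM against 78.1 CPM (0.839-fold, 0.725 to 0.970).

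Some genes of other specialised mucosae were higher beside the mucins. Of 7 gastric pit and gland genes of at least 10 CPM, 5 were at least 2-fold higher at day 9 and 4 at day 7, and none was lower, beside 2.90% higher and 15.7% lower of all genes at day 9 and 4.26% and 15.8% at day 7. Among them, GKN1, a secreted gastric peptide, stood at 103 CPM against 34.5 CPM at day 9. CLDN18, a claudin of stomach and lung tight junctions, stood at 26.4 CPM against 7.44 CPM and so reached 10 CPM in cluster 19 alone. Of the 6 gastric genes that reached it in both sets at each day, 4 were at least 2-fold higher at day 9 and 3 at day 7. Of 11 genes of bladder umbrella cells of at least 10 CPM, 3 were at least 2-fold higher at both days and none lower. Of the 10 that reached 10 CPM in both sets, 3 were higher at day 9 and 2 at day 7. UPK1A, a uroplakin of the apical membrane, stood at 706 CPM against 226 CPM at day 9 (3.12-fold, 3.00 to 3.24) and 568 CPM against 205 CPM at day 7. GRHL3, a transcription factor of barrier epithelia, stood at 57.7 CPM against 17.2 CPM at day 9 and 61.9 CPM against 14.3 CPM at day 7. UPK1B, another uroplakin, stood at 540 CPM against 467 CPM. Cluster 18 read more GKN1, CLDN18 and UPK1A than cluster 19 at day 9, at 130, 27.9 and 1022 CPM, and less GRHL3, at 40.4 CPM. In the mitochondria-matched cells 1 gastric gene (TFF2) and no umbrella cell gene stayed past 2-fold at day 9, and UPK1A was 1.59-fold higher. At day 7 matched GRHL3 was 2.32-fold higher (1.86 to 2.89). No gastric gene was then at least 2-fold higher in matched cells, and 1 (TFF2) was lower.

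Some secreted defence genes were higher. Of 7 measured at day 9, 3 were at least 2-fold higher and none lower, and at day 7 5 of 8 were higher, beside 2.90% and 4.26% of all genes. Of the 7 that reached 10 CPM in both sets at day 7, 4 were higher. CXCL17, a chemokine of mucosal surfaces, stood at 654 CPM against 215 CPM at day 9 and 655 CPM against 230 CPM at day 7. LTF, which encodes the iron-binding protein lactoferrin, was 4.46-fold higher at day 7 (407 CPM) and 1.78-fold higher at day 9 (184 CPM). Cluster 18 read more of both than cluster 19 at day 9, at 824 CPM of CXCL17 and 260 CPM of LTF. Cluster 7 read 403 and 205 CPM. None of 8 defence genes stayed at least 2-fold higher in the mitochondria-matched cells at either day, and 1 was lower at each. CXCL17 was there 1.56-fold higher at day 9 (1.49 to 1.64), and LTF was lower in the cluster, at 166 CPM against 248 CPM (0.667-fold, 0.610 to 0.729). Of 6 airway secretory genes in the matrices, 3 reached 10 CPM at day 9, each of them in cluster 19 alone. SCGB3A2, a secretoglobin of airway secretory cells, stood at 34.0 CPM against 7.36 CPM (4.63-fold, 3.83 to 5.57), SCGB3A1, another secretoglobin, at 10.1 CPM against 0.958 CPM, and PIGR, the receptor that carries antibodies across epithelia, at 14 CPM against 1.56 CPM. MX2, an interferon-induced GTPase, was the only 1 of 7 interferon-stimulated genes past 2-fold, at 92.5 CPM against 22.6 CPM at day 9 and 129 CPM against 35.2 CPM at day 7. With the same matching MX2 was 1.97-fold higher at day 9 (1.72 to 2.26) and SCGB3A2 1.96-fold (1.55 to 2.48). SCGB3A1 was 6.16-fold (3.60 to 10.9) and PIGR 3.68-fold higher (2.37 to 5.73) under it. Cluster 18 read more MX2 than cluster 19 at day 9, at 108 CPM, and less SCGB3A2, at 28.5 CPM.

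Ion transport genes were read beside all genes at day 9, of which 2.90% were higher and 15.7% lower. Of 10 measured sodium channel and pump genes 1 was higher and 1 lower, and of 9 duct anion and fluid secretion genes none was higher and 1 lower. At day 7 the first list had 2 of 10 higher and 2 lower, and the second 2 of 10 higher and 1 lower. Of all genes 4.26% were higher at day 7 and 15.8% lower. SCNN1A, the alpha subunit of the epithelial sodium channel, stood at 196 CPM against 51.2 CPM at day 9 (3.83-fold, 3.55 to 4.12) and 261 CPM against 62.3 CPM at day 7 (4.18-fold, 3.86 to 4.53). The beta subunit gene SCNN1B read 0.194 CPM at day 9 and 2.35 CPM at day 7, and the gamma subunit gene SCNN1G was 7.19 CPM against 12.9 CPM at day 9. Of the 3 subunit genes the alpha subunit alone was past 2-fold in the higher direction. CFTR transcript read 13.4 CPM against 11.2 CPM at day 9 (1.20-fold, 0.920 to 1.55) and 14.4 CPM against 10.8 CPM at day 7 (1.34-fold, 0.970 to 1.81), so no difference was detectable at this depth. KCNN4, a potassium channel of secretory epithelia, was 12.7-fold lower at day 9 (8.45 to 20.1). ATP6V1B1, a proton pump subunit of acid-secreting cells, stood at 90.8 CPM against 24.6 CPM at day 9 and 108 CPM against 22.5 CPM at day 7. ATP6V0D2, another subunit of that pump, went the other way, at -1.55 log2 at day 9 and -1.27 at day 7. These 2 were the only ionocyte list genes measured. Of 8 measured genes of the vacuolar proton pump, 1 was at least 2-fold higher and 1 lower at day 9. At day 7, 2 of 9 were higher and 2 lower. Matched ATP6V0D2 was 0.629-fold (0.474 to 0.824) at day 9 and 0.651-fold (0.456 to 0.909) at day 7. The ionocyte factors FOXI1 and ASCL3 had no UMI in the cluster at either day, which allows up to 0.583 CPM at day 9. SLC6A14, an amino acid transporter, stood at 49.2 CPM against 11.9 CPM at day 9. None of these 3 higher genes stayed past 2-fold in mitochondria-matched cells at day 9, where SCNN1A was 1.68-fold higher (1.53 to 1.84), ATP6V1B1 1.30-fold (1.13 to 1.5) and SLC6A14 1.96-fold (1.62 to 2.38). At day 7 matched SCNN1A was 2.07-fold higher (1.87 to 2.29), ATP6V1B1 2.25-fold (1.89 to 2.67) and SLC6A14 1.84-fold (1.43 to 2.34). KCNN4 stayed lower, at 0.238-fold.

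The other leading genes at day 9 included membrane proteins and enzymes. PROM1, the apical membrane protein CD133 and a centroacinar marker of the study, stood at 24.9 CPM against 5.80 CPM (4.29-fold, 3.45 to 5.33). EGF, the growth factor, stood at 44.3 CPM against 11.4 CPM. DPP4, a membrane peptidase, stood at 36.2 CPM against 8.94 CPM. Cluster 18 read more EGF and DPP4 than cluster 19 at day 9, at 67.4 and 61.9 CPM. BAAT, which conjugates bile acids and fatty acids to amino acids, stood at 54.6 CPM against 12.6 CPM. PLCH1, a phospholipase C, stood at 53.8 CPM against 14.1 CPM. These 5 genes were higher at day 7 as well, by 2.45, 1.82, 1.70, 1.58 and 1.92 on the log2 scale. The unnamed genes LOC101690256, LOC101676601 and LOC101673075 were among the 5 highest, at 144, 64.9 and 21.6 CPM against 21, 11.6 and 3.32 CPM. Of these 8 genes, DPP4 (2.71-fold) and the 3 unnamed genes (2.91-fold, 4.12-fold and 2.53-fold) stayed past 2-fold in mitochondria-matched cells at day 9, whereas PROM1 (1.54-fold), EGF (1.84-fold), BAAT (1.90-fold) and PLCH1 (1.80-fold) did not. At day 7 matched PROM1 (2.28-fold, 1.63 to 3.18), PLCH1 (2.15-fold, 1.71 to 2.69), LOC101690256 (2.11-fold) and LOC101673075 (2.21-fold) were past 2-fold. DPP4 (1.83-fold), EGF (1.74-fold) and BAAT (1.57-fold) were not. Over all cells LOC101676601 was lower in the cluster at day 7, at 46.7 CPM against 61.8 CPM, and it was 0.734-fold in matched cells.

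**Figure D3:**
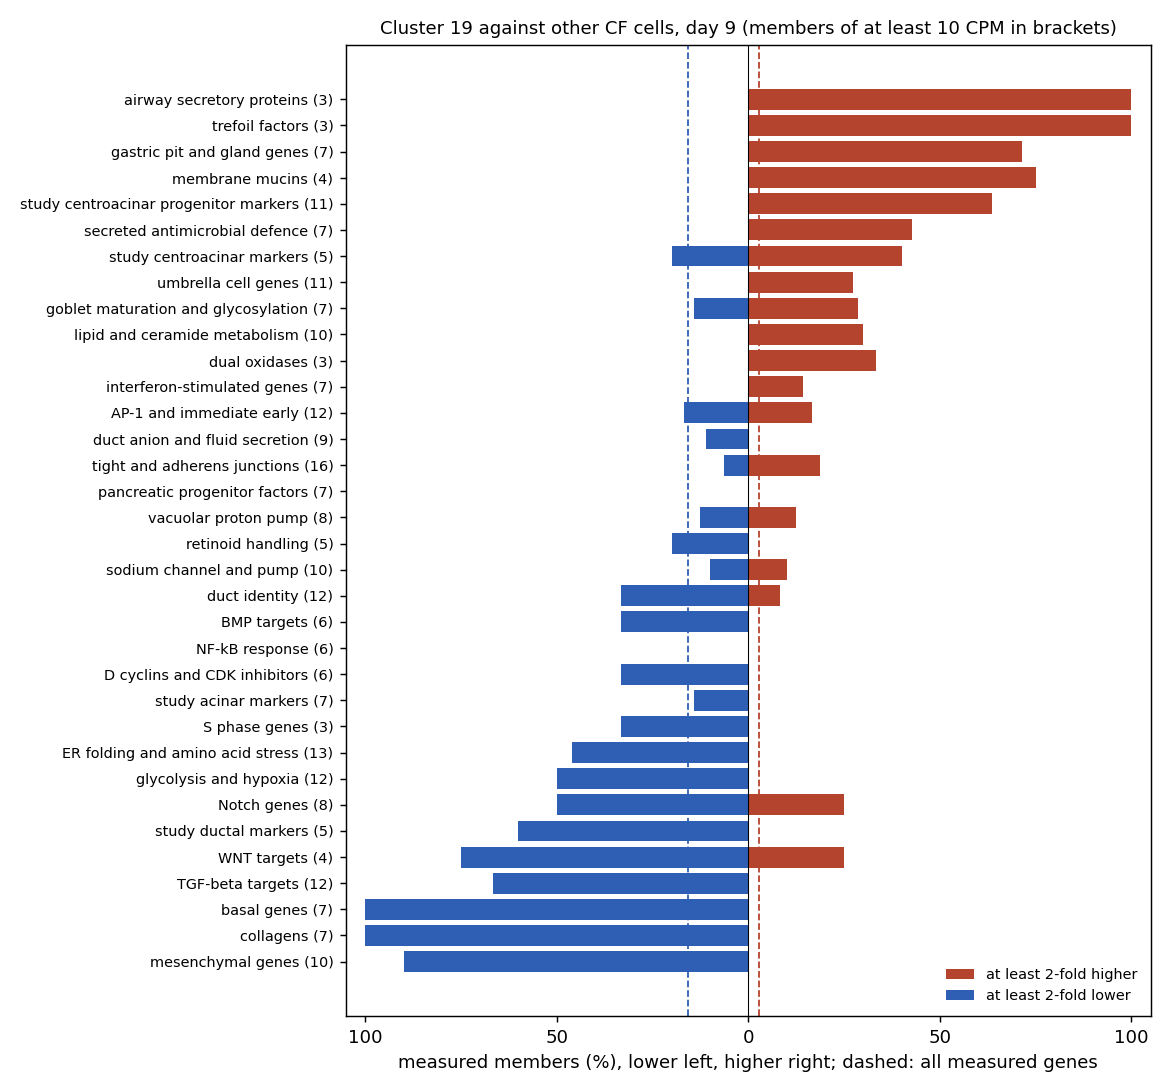
Share of each gene list's members of at least 10 CPM (number in brackets) that were at least 2-fold higher (red, to the right) or lower (blue, to the left) in cluster 19 than in the other CF cells at day 9. Dashed lines mark the same shares over all 8009 genes, 2.90% higher and 15.7% lower. Lists with 3 or more such members are shown in order of their median. Trefoil factors lie near the top with 3 of 3 higher, and mesenchymal genes at the bottom with 9 of 10 lower. The 3 airway secretory genes and 6 of the 7 collagens reached 10 CPM in 1 of the sets only, so their bars follow in part from that limit.

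Most of the mesenchymal and matrix genes measured were lower in cluster 19 than in the other CF cells together. Of 10 mesenchymal genes of at least 10 CPM, 9 were at least 2-fold lower at both days, beside 15.7% of all genes at day 9 and 15.8% at day 7. Of the 8 that reached 10 CPM in both sets at day 9, 7 were, and of 4 at day 7, 3. The list has 6 further members that stayed under that limit in both sets at each day. TAGLN, a smooth muscle actin-binding protein, stood at 11.9 CPM against 657 CPM at day 9 (55.4-fold lower, 43.1 to 72.5). CALD1, which encodes caldesmon, stood at 14.6 CPM against 485 CPM (33.3-fold lower, 26.5 to 42.3). VIM, the mesenchymal filament vimentin, stood at 11.9 CPM against 290 CPM (24.5-fold lower, 19 to 32). FN1, fibronectin of the matrix, stood at 23.3 CPM against 478 CPM (20.5-fold lower, 17.1 to 24.7). Low levels of these genes were not particular to cluster 19. In clusters 18 and 7 TAGLN read 3.68 and 4.02 CPM at day 9, and CALD1 3.06 and 13.4 CPM. VIM read 7.66 and 18.1 CPM there, and FN1 23.6 and 11.6 CPM. Clusters 3, 11 and 23 of the pooled other cells read 841, 2877 and 1604 CPM of TAGLN. Of 12 collagens, 7 reached 10 CPM at day 9, 6 of them in the other CF cells alone. COL17A1, a collagen of hemidesmosomes, reached it in both sets, at 66.7 CPM against 293 CPM. COL12A1, a fibril-associated collagen, stood at 2.33 CPM against 45 CPM. In the mitochondria-matched cells 6 of 9 mesenchymal genes were still at least 2-fold lower at day 9, beside 2.60% of all genes there.

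Several targets of TGF-beta, the cytokine that drives mesenchymal change in epithelia, were also lower. Of 12 measured, 8 were at least 2-fold lower at both days and none higher, beside 15.7% and 15.8% of all genes. The 12 ranged from -4.79 to 0.16 log2 at day 9. Of the 11 that reached 10 CPM in both sets at day 9, 7 were. TGFB1 itself stood at 17.9 CPM against 104 CPM at day 9 (5.80-fold lower, 4.72 to 7.21). Among mitochondria-matched cells 2 of 11 of these targets were at least 2-fold lower at day 9, beside 2.60% of all genes, and TGFB1 was 0.603-fold (0.465 to 0.773). SPP1, the secreted phosphoprotein osteopontin made by duct cells, stood at 112 CPM against 2149 CPM at day 9 (19.2-fold lower, 17.7 to 20.8) and 29.4 CPM against 1197 CPM at day 7 (40.8-fold lower, 33.5 to 50.1). Matching left SPP1 at 107 CPM against 279 CPM at day 9 (0.386-fold, 0.347 to 0.428). Clusters 18 and 7 read less SPP1 than cluster 19 at day 9, at 14.7 and 32.8 CPM. Other genes among the 12 lowest at day 9 were COL18A1, a basement membrane collagen, FADS3, IGFBP2, MYL9, PRRX2 and LOC101679740, which stood at 12.4 CPM against 745 CPM.

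Basal cell genes were lower in cluster 19 than in the other CF cells together. All 7 measured at day 9 and 7 of 8 at day 7 were at least 2-fold lower, beside 15.7% and 15.8% of all genes, and all 7 at day 9 reached 10 CPM in both sets. TP63, the master factor of basal cells, stood at 14.6 CPM against 66.2 CPM at day 9 (4.54-fold lower, 3.61 to 5.79) and 11.7 CPM against 111 CPM at day 7. In clusters 18 and 7 TP63 read 3.98 and 1.98 CPM at day 9, and KRT5 10.7 and 12.4 CPM against 49.4 CPM in cluster 19. ITGB4, the hemidesmosome integrin, stood at 153 CPM against 699 CPM, and at 108 and 173 CPM in clusters 18 and 7. CF clusters 15 and 25 at day 5 read more of all 3 than cluster 19 at day 9, with TP63 at 42.1 and 21.7 CPM, KRT5 at 207 and 140 CPM and ITGB4 at 223 and 206 CPM. Centring on the median gene left 6 of the 7 at day 9, and the mitochondria-matched cells left 2. Of 16 junction genes measured, 3 were at least 2-fold higher and 1 lower at day 9, where 2.90% of all genes were higher and 15.7% lower. CDH1, the epithelial cadherin, stood at 832 CPM against 489 CPM at day 9 and was higher in cluster 19 than in any other CF cluster of at least 50 cells at both days. OCLN, the tight junction protein occludin, stood at 135 CPM against 58.7 CPM, and at 150 CPM in cluster 18. In the mitochondria-matched cells none of the 16 junction genes was past 2-fold at day 9, where OCLN was 1.39-fold higher (1.25 to 1.55). At day 7 none of the 15 that reached 10 CPM in both matched sets was.

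Notch genes went both ways. Of 8 measured, 4 were at least 2-fold lower and 2 higher at both days, where 15.7% and 15.8% of all genes were lower and 2.90% and 4.26% higher. The 10 CPM limit was reached in both sets by 4 of the 8, with 1 lower and 1 higher. Among the low ones were the ligand genes, with JAG1 at 49.2 CPM against 186 CPM at day 9 (3.78-fold lower, 3.33 to 4.30), JAG2 at 4.08 CPM against 30.9 CPM and DLL1 at 5.64 CPM against 29.9 CPM. LFNG, a glycosyltransferase that modifies Notch, was low with them, at 6.61 CPM against 51.8 CPM. The receptor genes NOTCH2 and NOTCH3 were the high ones, at 95.1 CPM against 44.4 CPM and 11.9 CPM against 4.81 CPM, and the receptor gene NOTCH1 stood at 43.7 CPM against 69.9 CPM. In the mitochondria-matched cells 2 Notch genes were at least 2-fold lower at day 9 and none higher. HES1, a target of the pathway, was close to level at day 9, at 514 CPM against 537 CPM. Of 12 WNT targets in the matrices, 4 were measured, 2 of them above the limit in both sets. AXIN2, the feedback inhibitor of the pathway, was higher (12.8 CPM against 3.08 CPM), and DKK1, CCND1 and MYC were lower at day 9. Matched AXIN2 was 1.58-fold higher at day 9 (1.05 to 2.35), DKK1 0.234-fold (0.197 to 0.277), CCND1 0.432-fold (0.384 to 0.485) and MYC 0.514-fold (0.287 to 0.868). So DKK1 and CCND1 alone of the 4 stayed past 2-fold at day 9. At day 7, 1 of 4 measured was higher and 1 lower over all cells, beside 4.26% and 15.8% of all genes. Matched AXIN2 was then 2.40-fold higher (1.63 to 3.49). DKK1 was 0.879-fold (0.714 to 1.07) and CCND1 0.629-fold (0.548 to 0.72), both short of 2-fold. MYC was under 10 CPM in both matched sets at day 7.

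Metabolic and folding genes were lower in part. Of 12 glycolysis and hypoxia genes, 6 were at least 2-fold lower at day 9 and 7 at day 7, beside 15.7% and 15.8% of all genes, with GAPDH at 362 CPM against 829 CPM at day 9. Centred on the median gene, 2 of the 12 remained at day 9, and none in the mitochondria-matched cells. Of 13 genes of protein folding and amino acid stress in the endoplasmic reticulum, 6 were at least 2-fold lower at day 9. HSPA5, the main chaperone of that compartment, stood at 140 CPM against 454 CPM. None of the 13 was past 2-fold in the mitochondria-matched cells.

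Of 7 measured transcription factors of the developing pancreas, none was past 2-fold at day 9 and 1 at day 7. Among all genes 2.90% were higher and 15.7% lower at day 9, and with 7 members nothing is read from that count. PDX1, the pancreas master factor that the study follows, read 3.89 CPM against 4.50 CPM at day 9 (0.864-fold, 0.516 to 1.37) and 4.4 CPM against 5.11 CPM at day 7. SOX9, a duct and progenitor factor, was 2.68-fold higher at day 7 (1.93 to 3.66) and 1.02-fold at day 9 (0.773 to 1.33). Matching left it at 1.62-fold at day 7 (1.04 to 2.46) and lower at day 9, at 0.535-fold (0.379 to 0.742). PAX6, an endocrine and neural factor, stood at 72.5 CPM against 44.6 CPM at day 9. SOX2, a factor of foregut and airway epithelium, had no UMI in the cluster at day 7 or day 9. All cells of the day 9 libraries together read 0.02 CPM of SOX2 in CF and 88.8 CPM in WT, while PDX1 read 4.44 CPM in CF and had no UMI in WT.

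Most defining markers of cell types that do not belong to duct epithelium were at or near 0. At day 9 no UMI was found in the cluster for 4 of 4 endocrine markers (CHGA, NEUROD1, INS and GCG) and 4 of 4 acinar markers (CPB1, CEL, PTF1A and RBPJL). The same held for 3 of 3 endothelial markers and 2 of 2 tuft cell markers. Of a wider list of 16 endocrine genes 13 had no UMI, and the list summed to 38.7 CPM against 58.8 CPM. Its 2 members of at least 10 CPM stood at -3.02 and 0.66 log2. Of 8 acinar enzyme and factor genes in the matrices 7 had no UMI, and the list summed to 27.6 CPM against 87.6 CPM, all of it in the cluster from CLPS, which encodes pancreatic colipase. The 3 ciliated cell markers summed to 1 UMI at day 9, and 7 proliferation markers to 3 UMIs. Of 3 immune and 3 fibroblast markers, 2 each had no UMI, and the sums were 5.44 and 4.67 CPM in the cluster against 6.13 and 2.07 CPM in the other cells. The 4 defining mesenchymal markers summed to 24.5 CPM in the cluster against 972 CPM.

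The CF clusters most like cluster 19 over 10635 genes were cluster 15 (Pearson correlation of log2(CPM + 1) 0.985), cluster 25 (0.979) and cluster 18 (0.976), followed by cluster 7 (0.973). Those values are across genes, which are not replicates. Cluster 15 was mostly a day 5 cluster, with 344 of its cells in that library, 5 at day 9 and a median of 12.7% mitochondrial UMIs. Its TFF3 was 28.7 CPM and its MUC1 1179 CPM at day 5. At day 9 cluster 18 (139 cells) and cluster 7 (473 cells) were the like clusters with at least 50 cells.

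Cluster 18, which the deposited table calls centroacinar progenitor, came close to cluster 19 in the summed level of several genes that led the latter. TFF3 stood at 317 CPM in cluster 18 (cluster 19 1.24-fold higher, 1.15 to 1.33) and SPINK1 at 1089 CPM (1.05-fold, 1.01 to 1.09). These intervals leave out the spread between cells, which is given below for cluster 19. Fewer of its cells had a SPINK1 UMI, 12.9% after thinning (7.86 to 19.7) against 41.2% in cluster 19 (34.8 to 47.8), and 29.5% against 60.9% before thinning. TFF3 was seen in 30.9% of its cells after thinning (23.4 to 39.3) and 65.5% before. MUC1 stood at 1132 CPM (0.960-fold, 0.921 to 1.00) and SCNN1A at 200 CPM (0.980-fold, 0.887 to 1.08). At day 7 cluster 18 exceeded cluster 19 in TFF3, with 242 CPM against 153 CPM, and in TFF2, with 493 CPM against 285 CPM. KRT19 stood at 3903 CPM in cluster 18 at day 9, against 1397 CPM in cluster 19 (0.358-fold, 0.348 to 0.368). Of 7585 genes of at least 10 CPM, 68 (0.897%) were at least 2-fold higher in cluster 19 and 448 (5.91%) lower. Among the lower genes were the unnamed LOC123388618 (73.5 CPM against 437 CPM), LOC123388635 (121 CPM against 699 CPM) and LOC123388619 (57.7 CPM against 327 CPM), and G0S2, an inhibitor of lipolysis, at 132 CPM against 546 CPM. SPP1, CDH6, SPARC, SFRP1, PTHLH and KRT5 led the higher genes, with SPP1 at 112 CPM against 14.7 CPM (7.63-fold, 5.68 to 10.5) and KRT5 at 49.4 CPM against 10.7 CPM. UPK1A was lower in cluster 19 (0.691-fold), as was CFTR (0.584-fold, 0.415 to 0.821). The mitochondrial share of cluster 18 was also lower, at a median of 8.25% against 12.8%, and its part in these differences was not tested.

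Against cluster 7, of centroacinar name, the largest differences included TFF3 and SPINK1. TFF3 stood at 46.9 CPM in cluster 7 at day 9 (cluster 19 8.36-fold higher, 7.66 to 9.14), and SPINK1 at 135 CPM (8.43-fold, 8.01 to 8.88). LY6D, DPP4 and TGFBI were higher in cluster 19 as well, with LY6D, a lymphocyte antigen family member of squamous epithelia, at 160 CPM against 6.99 CPM. Cluster 18 read more LY6D and DPP4 than cluster 19, at 278 and 61.9 CPM. AGR2, DKK1 and MMP7 were lower, with AGR2 at 36.5 CPM against 370 CPM. KRT19 stood at 4211 CPM in cluster 7, and WFDC2, a secreted protease inhibitor, at 697 CPM against 324 CPM in cluster 19. Of 7287 genes, 165 (2.26%) were at least 2-fold higher in cluster 19 and 161 (2.21%) lower.

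The WT clusters most like it were cluster 30 (0.955), cluster 17 (0.952) and cluster 29 (0.935), with 146, 406 and 112 cells at day 9 and median mitochondrial shares of 14.3%, 14.4% and 13.9%. TFF3 stood at 341, 1449 and 598 CPM in them at day 9, above the 392 CPM of cluster 19 in 2 of the 3. SPINK1 stood at 51.7, 4.48 and 1.55 CPM, under the 1143 CPM of cluster 19. UPK1A was likewise lower in all 3, at 62.8, 87.7 and 121 CPM against 706 CPM. KRT19 was higher in all 3, at 4147, 3824 and 2036 CPM against 1397 CPM. CFTR was higher in all 3, at 40.4, 58.6 and 39.2 CPM against 13.4 CPM. Genotype and library cannot be told apart in these values.

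**Figure D4:**
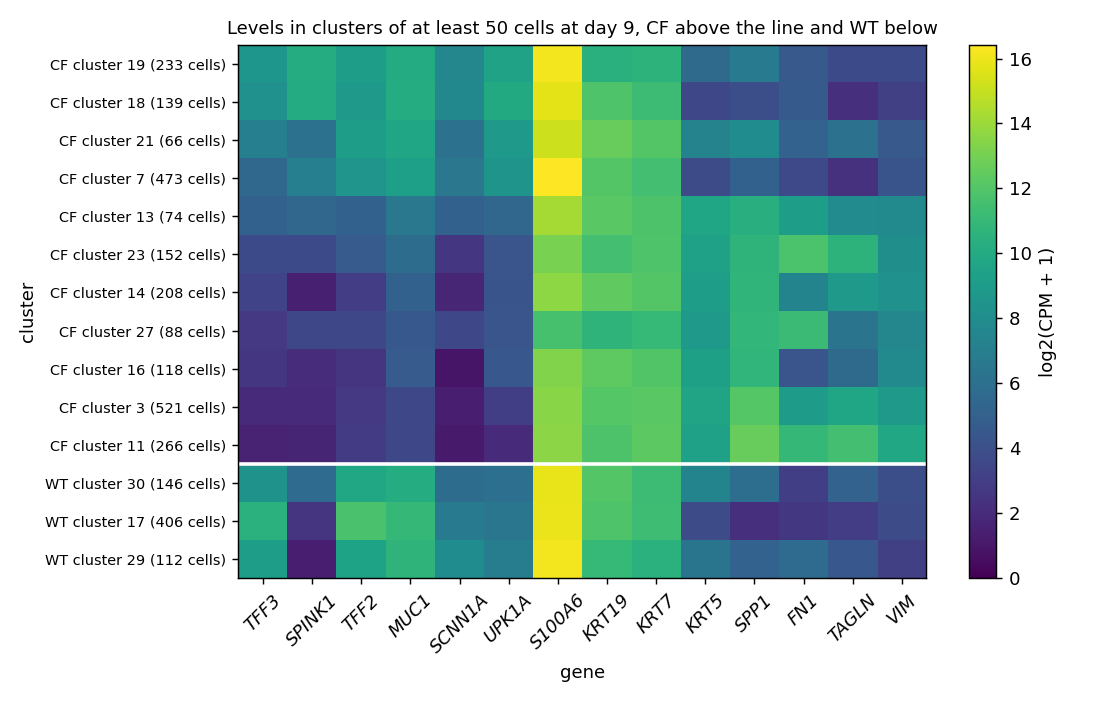
Levels of 14 genes, as log2(CPM + 1) by colour, in the CF clusters with at least 50 cells at day 9 in order of TFF3 and in the 3 most similar WT clusters (below the white line). Cluster 19 and cluster 18 share high TFF3, SPINK1, MUC1 and SCNN1A, while KRT19 (1397 CPM) and KRT7 (1585 CPM) are lowest in cluster 19 among the CF clusters shown, and SPINK1 is low in the WT clusters.

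Few genes of cluster 19 differed between day 7 and day 9. Of 7343 genes that reached 10 CPM in cluster 19 at either day, 18 (0.245%) were at least 2-fold higher at day 9 and 16 (0.218%) lower. The other CF cells had 22 (0.275%) and 12 (0.150%) of 8008 genes. SPINK1 was highest on this measure, at 1143 CPM at day 9 against 301 CPM at day 7 (1.92 log2), beside 2.29 log2 in the other CF cells. Without the single day 7 cell described above it was 3.45 log2. SPP1 (1.90 log2), LY6D (1.52), FN1 (1.49), SPARC (1.47) and TFF3 (1.35) followed. TFF3 was lower at day 9 than at day 7 in the pooled other CF cells (-0.40 log2), and in cluster 18 it was higher at day 9, at 317 CPM against 242 CPM. FN1 and SPARC, matrix proteins, were higher at day 9 by less in the other CF cells (0.10 and 0.23 log2), and their levels in the cluster stayed low, at 23.3 and 77.2 CPM. At the other end were LOC101680039 (-1.43 log2), LTF (-1.14), ADAMTS1 (-1.11), DDOST (-1.04), MUC5AC (-1.03) and GRHPR (-0.99). LTF and MUC5AC, both secreted products, differed by 0.18 and 0.25 log2 in the other CF cells. Median depth of the cluster's cells was lower at day 9, as given above, and the part of this depth in these differences was not tested, while day and library cannot be told apart.

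Cells of the cluster differed among themselves in SPINK1 and in other genes of several kinds. At day 9 the variation over cells was measured for 1318 genes that read 100 CPM or more. Their index of dispersion, the variance of UMIs over cells relative to a Poisson count at each cell's depth, had a median of 1.40. At the same relative spread over cells, this index is larger for a gene of higher level. SPINK1 had the highest, 193. COX1 (104), S100A6 (89.4), LOC101685363 (86.1), WFDC2 (66.1), COX2 (50.8), RPS29 (42.6) and TFF2 (42.2) followed. The 24 of 233 cells with the most SPINK1 for their depth held 74.9% of its UMIs, and the corresponding 24 cells held 78.4% for WFDC2, 59.3% for TFF2 and 54.2% for TFF3. LY6D, with an index of 28.1, had 82.9% of its UMIs in its 24 highest cells. For S100A6 and COX1 that share was 11.6% and 12.1%. The median cell at day 9 held 0.529 SPINK1 UMIs per 10000 and the cell at the upper 10% limit 37.7, and 91 of 233 cells had none. The top cells for SPINK1 had a median of 18839 UMIs against 23192 in the rest, and a median mitochondrial share of 11.7% against 13%.

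The trefoil genes shared more of their highest cells with each other than TFF3 did with SPINK1. Of the 24 cells with the most TFF3 at day 9 and the 24 with the most SPINK1, 2 were shared (8.33% of each), and at day 7 1 of 9. TFF3 and TFF2 shared 10 of 24 cells (41.7%) at day 9 and 6 of 9 (66.7%) at day 7. TFF2 and TFF1 shared 9 of 24 cells at day 9 and 5 of 9 at day 7. Over all 233 cells at day 9, the Pearson correlation of log2(UMIs per 10000 + 1) was 0.00 for SPINK1 and TFF3, 0.57 for TFF3 and TFF2 and 0.73 for TFF2 and TFF1. At day 7, over 88 cells, it was -0.04, 0.61 and 0.66. The points share a library and are cells, not replicates. With at least 5 UMIs per 10000 as the limit, 49 cells at day 9 had TFF3, 66 had SPINK1 and 12 had both. Inside the cluster at day 9 TFF3 read 546 CPM in 75 cells under 11% mitochondrial UMIs, 380 CPM in 82 cells of 11 to 15% and 223 CPM in 76 cells above, while SPINK1 read 1024, 1234 and 1169 CPM. At day 7 TFF3 did not follow that order, at 102, 192 and 135 CPM in 12, 35 and 41 cells, and SPINK1 read 78.8, 542 and 156 CPM.

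**Figure D5:**
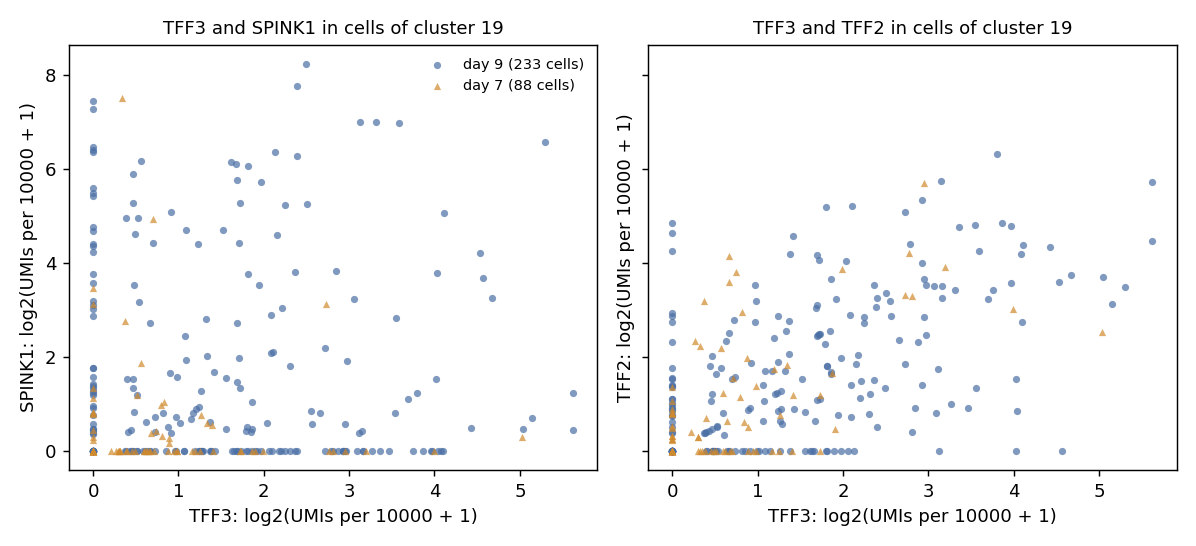
Each point is a cell of cluster 19 (233 at day 9, blue circles, and 88 at day 7, orange triangles), with TFF3 on the x axis and SPINK1 (left) or TFF2 (right) on the y axis, all as log2(UMIs per 10000 + 1). Cells high in SPINK1 are spread over all levels of TFF3, including 0, whereas TFF2 is higher in cells with more TFF3 (Pearson correlation 0.57 at day 9).

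On the authors' pseudotime, 327 of the 331 cells lay on CF lineage 1 and 330 on CF lineage 2, and at most 1 cell lay on any of the other 11 lineages. Along lineage 2 the median of cluster 19 was 48.8, behind only cluster 7 (57.4) among the 19 clusters of at least 50 cells. Along lineage 1 its median was 41.3, the fifth latest of 22, with cluster 23 the latest at 92.9. On lineage 2 the medians of its cells were 46.6 at day 5, 47.9 at day 7 and 49.1 at day 9, in 10, 88 and 232 cells. The 10 cells of day 5 held 10 TFF3, 12 SPINK1 and 592 MUC1 UMIs among 372392, that is 26.9, 32.2 and 1590 CPM.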

How the data were processed

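Ferret PDE cells of 8 libraries were used. The authors had counted UMIs with Cell Ranger 5.0.1 on the assembly ASM1176430v1.1, filtered cells at a minimum of 200 genes and a maximum of 20% mitochondrial UMIs, removed doublets and clustered with Seurat. The deposited UMI counts, the deposited percent of mitochondrial UMIs, the cluster numbers and the deposited pseudotime scores were used as they are, and a log-normalized matrix was not used here. Counts of retained cells were summed per cluster and library and scaled to CPM. Differences were taken on log2(CPM + 1) for genes of at least 10 CPM in either set, and called at 2-fold. Intervals (95%) were exact Poisson, exact conditional binomial or Clopper-Pearson, and cover counting error only. With 1 library per group no model was fitted, and edgeR 4.0.16 and DESeq2 1.42.0 gave only scaling factors for alternatives. The steps ran in Python 3.11.15 with NumPy 2.4.6 and SciPy 1.17.1, and were tested on simulated data. Genes were named as the 15 highest and 12 lowest at day 9 of at least 20 CPM, the 6 highest and 6 lowest between days, the 8 most dispersed, members of gene lists and a fixed set; unnamed LOC genes were printed when among the first 5. Some genes are not reported here. CDH1, UPK1B, SPDEF, SCNN1B, SCNN1G, NOTCH1, G0S2 and 3 unnamed genes lower than in cluster 18 were added after their values were seen. The members and the lists were chosen with earlier results of these data known. Gene positions come from a RefSeq table of the same assembly.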

Additional observations from a re-analysis of the deposited data

Results flagged for a closer look

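LOC101676601 differed in opposite directions at the 2 days. Cluster 19 minus other CF cells was -0.40 log2 at day 7 (0.755-fold, 0.638 to 0.888) and 2.39 log2 at day 9 (5.59-fold, 4.86 to 6.43). The difference between the days was not tested, since each day has 1 library.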

How the results depend on the processing

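No paired analysis was possible because the labels give no replicate numbers and each genotype and day has 1 library, and for the same reason no replicate could be left out. The 232 genes at least 2-fold higher at day 9 became 471 with TMM factors, 491 with DESeq2 size factors, 114 at a limit of 50 CPM, 24 in mitochondria-matched cells and 475 after centring on the median gene. The 1259 lower genes became 835, 811, 506, 196 and 831 in that order, 1906 with the mean of cells' CPM and 2001 without a limit. At day 7, the 350 higher genes became 603, 631, 183, 40 and 622, and the 1297 lower genes 856 with DESeq2 size factors, 541 at 50 CPM, 362 in matched cells and 2108 without a limit. Between days within the cluster, the 18 higher genes became 111 without a limit and 11 with a pseudocount of 5, and the 16 lower genes 157 and 4, and 10 with TMM factors or centring. The share of cells at day 7 was 7.36% in place of 5.48% among cells of at least 3000 UMIs. In matched cells 3 differences of named genes past 2-fold reversed, MUC5B at day 9 (-0.29 log2), TFF2 at day 7 (-1.03) and TFF3 at day 7 (-0.07). Some under 2-fold turned as well, among them LTF (-0.58) and MUC5AC (-0.25) at day 9. The cause was not tested. The mitochondria-matched and centred settings, and SPINK1 without its highest cell, were added after seeing the data. Of 128 named genes past 2-fold at day 9, 127 kept their direction in all 12 settings and 44 stayed past 2-fold in all of them. Many of these genes were named for their day 9 values, and most settings use the same cells. The kept direction is therefore no independent evidence.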
